A study of Mus musculus with 19 samples.

Results

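Nr4a1, Nr4a2 and Nr4a3 are the 3 genes of the Nr4a family of orphan nuclear receptors, chosen by name among 16233 genes counted in cells of the mouse medial amygdala. All 3 have a row in a table of 20679 cells from 16 libraries and in a table of 8071 cells from 5 libraries that compares dissociations. Transcripts were counted with Drop-seq, which catches single cells in droplets with barcoded beads and counts each captured transcript once by its unique molecular identifier (UMI). All mice were male C57BL/6J, and the labels name no transgene. Cells of the first table were dissociated with Act-Seq, a protocol built to limit transcription while tissue is taken apart, in 4 groups: naive (6 libraries), seizure (2), immobilization stress (4) and odor exposure (4). The second table holds a library of saline-injected mice and both seizure libraries prepared with Act-Seq, and a library of saline-injected mice and a library of seizure mice prepared by conventional dissociation. Mice were 9 weeks old for seizure 1, immobilization 2 and 3 and odor 1 and 2, and 8 weeks old for all others. How seizures were evoked, which odors were used and how many mice made up a library are not given in the labels. The labels keep the odor libraries out of the study's own immediate early gene comparisons, so the odor values are additional. Whether the libraries of a group stem from separate mice is not said, so p-values measure only how far these libraries spread, and that spread may be technical.

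Nr4a1 (also Nur77), Nr4a2 (Nurr1) and Nr4a3 (Nor1) are transcription factors without an established natural ligand, whose activity the mRNA counts given here do not measure. Their genes are immediate early genes: they are transcribed within minutes of a stimulus from factors already in the cell, among them CREB, which answers cAMP and calcium and binds the sequence TGACG. In brain they are known for induction by neuronal activity, and Nr4a2 also for keeping the identity of midbrain dopamine neurons.

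The sequences before the start sites of the 3 genes are shown because each carries the CREB core TGACG more than once. They come from RefSeq (GRCm38.p6), run 5′ to 3′ on the strand of the gene and stop at the start site or, for Nr4a3, at the first exon of GENCODE M21. Capitals mark TGACG or, on the other strand, CGTCA.
Nr4a1, chr15:101266596-101266845, plus strand, in an intron of longer transcripts of the gene: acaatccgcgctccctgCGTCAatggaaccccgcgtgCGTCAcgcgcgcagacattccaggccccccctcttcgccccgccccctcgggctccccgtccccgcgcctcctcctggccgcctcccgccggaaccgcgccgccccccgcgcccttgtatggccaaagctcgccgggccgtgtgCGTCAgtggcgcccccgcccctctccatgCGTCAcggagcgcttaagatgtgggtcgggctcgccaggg
Nr4a2, chr2:57124004-57124253, minus strand, before the gene: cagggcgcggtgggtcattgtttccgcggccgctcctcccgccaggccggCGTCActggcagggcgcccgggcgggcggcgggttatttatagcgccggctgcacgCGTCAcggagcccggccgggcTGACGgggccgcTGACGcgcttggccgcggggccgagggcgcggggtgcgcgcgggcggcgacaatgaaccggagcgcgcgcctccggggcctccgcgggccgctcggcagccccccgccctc
Nr4a3, chr4:48045055-48045152, plus strand, before the gene: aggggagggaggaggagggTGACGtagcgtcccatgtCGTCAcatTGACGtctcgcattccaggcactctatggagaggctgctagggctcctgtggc

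In the whole window of 300 bases per promoter (250 before and 50 after the start site), TGACG was found 4 times in each of the 3 genes on either strand. Of 32851 RefSeq promoters of the same length, 20.8% hold it at least once and 0.231% hold it 4 times or more. The matches lie 233 to 36 bases before the start in Nr4a1, 200 to 107 in Nr4a2 and 231 to 143 in Nr4a3, and the last of these in Nr4a3 falls in the exon and is not printed. The full cAMP response element TGACGTCA (in 1.79% of promoters), the Nr4a binding element AAAGGTCA (1.51%), the CArG box bound by SRF (1.63%) and TGTTCT of the glucocorticoid response element (19.0%) have no match in these windows. The TATA box TATAAA (13.6%) and the MEF2 site (3.19%) each match in Nr4a2 only, where they overlap. The windows are rich in G and C (72.3% in Nr4a1, 81.7% in Nr4a2 and 64.7% in Nr4a3, against a median of 52.7% over all promoters). A match is a stretch of letters and was not tested as a binding site. The gene bodies lie at chr15:101254269-101274795 (Nr4a1), chr2:57106830-57124003 (Nr4a2) and chr4:48045153-48086447 (Nr4a3), and no other gene of GENCODE M21 overlaps them.

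Library sizes in the first table ran from 43 to 2189 cells and from 116492 to 3723521 UMIs, and the median cell had 1222 UMIs. The 43 cells of naive 6 gave no class with 10 cells, the minimum for a library to enter a class, so naive values rest on naive 1 to 5. Odor 4 had too few neurons, and naive 5, immobilization 4 and odor 4 too few mural cells, to enter those classes. In the second table libraries ran from 2102364 to 4309887 UMIs, and the median cell had 1494. Cell names of the second table do not match those of the first: all 2900 of its seizure cells carry the counts of a cell of the same library in the first table (cosine similarity over 0.99), but 0 of them under the same barcode. Its seizure 1 and conventional saline libraries share 1115 barcodes, and 663 barcodes of seizure 2 in the first table stand under the conventional seizure library. The seizure values of both tables are therefore not independent, and the library names of the second table are taken as deposited. In the first table no pair of libraries shares more than 2 barcodes.

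The 3 genes are sparse. Nr4a1 gave 1174 UMIs in 828 cells of the first table, with at most 14 in a cell. Nr4a2 gave 218 UMIs in 168 cells and Nr4a3 189 UMIs in 153 cells. Levels are given in CPM, the usual depth-scaled count unit (a gene's UMIs relative to all UMIs of the same class and library), and are compared within a gene, not between genes. Classes are those the authors assigned, with neurons split into the 2434 cells that also stand in the authors' table of neurons (called neurons here) and the 6201 others of the neuron class. Each class carried its own markers in every library. Neurons also carried astrocyte markers at 9966 to 14798 CPM in naive and 13871 to 14859 CPM in seizure libraries, against 3314 to 17079 and 5496 to 5509 CPM of neuronal markers. In the others of the neuron class astrocyte markers stood at 15132 to 17262 and 15244 to 16034 CPM, above the 2042 to 9141 and 7561 to 8484 CPM of neuronal markers. The part of these markers in the Nr4a values of both classes was not tested.

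After seizure, Nr4a1 rose in astrocytes, endothelial cells and oligodendrocyte precursors, by log2 fold changes of 2.68 to 4.57. In all 8 classes both seizure libraries stood above every naive library, but in mural cells, microglia, oligodendrocytes, neurons and the others of the neuron class the difference did not pass the test. Nr4a2 and Nr4a3 passed in no class. These 3 calls are of 10 pairs of gene and class tested (Nr4a1 in 8 classes, Nr4a2 in neurons and endothelial cells), since Nr4a3 and the other pairs of Nr4a2 had too few UMIs for the filter on low counts. Over all genes and classes, 0.247% of 51784 tests were called raised, and in 4.29% both seizure libraries stood above every naive library.

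**Figure D1:**
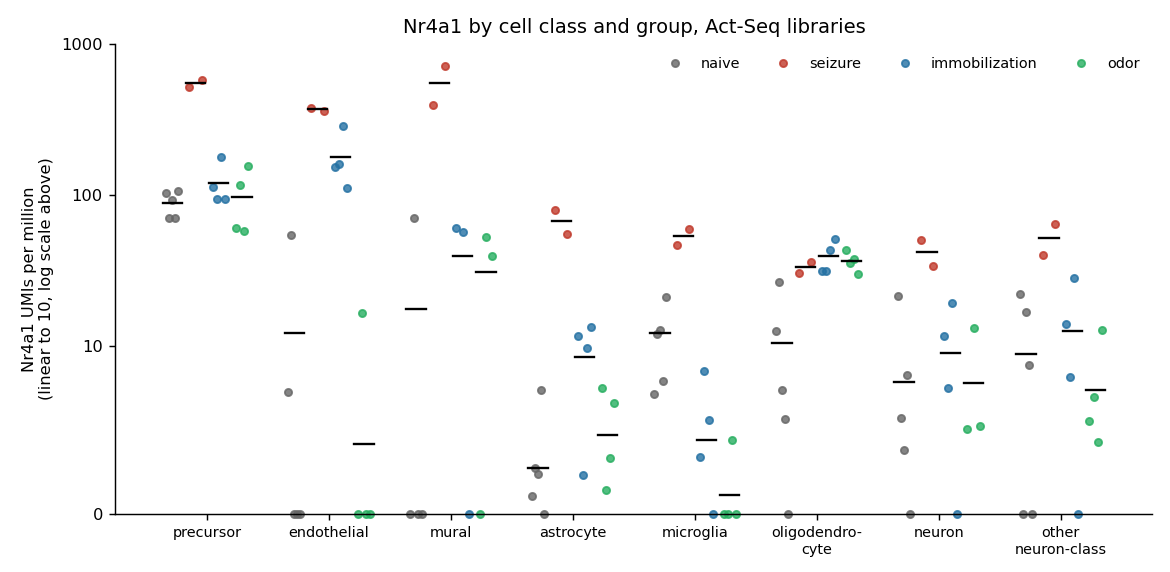
Nr4a1 in CPM (y axis, linear to 10 and log scale above) in each cell class, with 1 point per Act-Seq library, grouped as naive, seizure, immobilization and odor; bars mark group means. Seizure libraries lie above all naive libraries in every class, and immobilization libraries lie above all naive libraries in endothelial cells and oligodendrocytes.

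In endothelial cells, which line the vessels, Nr4a1 was low in naive libraries, at 7.25, 54.1, 0, 0 and 0 CPM in naive 1 to 5, and at 376.5 and 360.0 CPM in seizure 1 and 2. Naive 2 held 6 of the 7 naive UMIs, and the groups did not overlap. The log2 fold change was 4.57 (SE 0.54, adjusted p = 8.98e-07, edgeR quasi-likelihood F-test with Benjamini-Hochberg adjustment over all genes of the class). Without naive 2 it was 6.57 (adjusted p = 3.30e-08, edgeR). In the seizure libraries 30.4% ± 1.71 (SD, n = 2) of endothelial cells held a Nr4a1 UMI, against 0.543% ± 0.754 (SD, n = 5) in naive libraries. The cell with the most, 14 UMIs, was an endothelial cell of seizure 1. Endothelial cells also carried mural markers, at 3687 to 6556 CPM in naive and 5113 to 5715 CPM in seizure libraries. Mural cells carried these markers at 21125 to 40708 and 25332 to 36493 CPM. The part of mural RNA in endothelial Nr4a1 was not tested.

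In oligodendrocyte precursors, the dividing cells from which myelinating cells form, Nr4a1 stood at 103, 70.2, 92.0, 70.5 and 106 CPM in naive 1 to 5. These were the highest naive levels of any class, and over all 6 naive libraries 33.3% of Nr4a1 UMIs lay in precursors, which were 3.38% of the cells. Seizure 1 and 2 reached 519 and 581 CPM, several times every naive value, with a log2 fold change of 2.68 (SE 0.29, adjusted p = 3.34e-09, edgeR). A Nr4a1 UMI was found in 45.3% ± 0.540 of precursors after seizure (SD, n = 2) and in 17.9% ± 5.60 of naive ones (SD, n = 5). The summed oligodendrocyte markers in this class ranged from 7501 to 27186 CPM in naive libraries (median 20108). In seizure libraries they ranged from 9572 to 11663 CPM (median 10618), within the naive range but with a lower median. The precursor markers of the class had medians of 7179 and 8638 CPM in naive and seizure libraries, below those of the oligodendrocyte markers. The part of these markers in the Nr4a1 values was not tested.

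In astrocytes, the glia that contact synapses and vessels, Nr4a1 stood at 1.05, 2.71, 2.37, 7.40 and 0 CPM in naive libraries and at 80.0 and 54.8 CPM after seizure. The highest naive library stood far below the lower seizure library. The log2 fold change was 4.53 (SE 0.47, adjusted p = 2.25e-09, edgeR). The summed level of 7 endothelial markers in these astrocytes was 0.0959% and 0.127% of that in endothelial cells of seizure 1 and 2. Their Nr4a1 was 21.2% and 15.2% of the endothelial level. Against precursors, 6 precursor markers in astrocytes stood at 2.93% and 2.30% and Nr4a1 at 15.4% and 9.43%. Not every class ran this way: in oligodendrocytes these precursor markers stood at 21.7% and 15.8% and Nr4a1 at 5.91% and 6.24%. What part of the astrocyte Nr4a1 came from RNA of other classes was not tested.

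Mural cells, the smooth muscle cells and pericytes of the vessel wall, gave 393 and 709 CPM after seizure and 0, 70.1, 0 and 0 CPM in naive 1 to 4. The fitted log2 fold change was as large as in endothelial cells, 4.57, but with 45 seizure cells in all it did not pass (adjusted p = 0.0874, edgeR). It passed without the filter on low counts (adjusted p = 3.59e-05, edgeR) and with DESeq2 (adjusted p = 0.0107). In neurons the values were 21.5, 5.71, 3.82, 8.25 and 0 CPM in naive libraries and 50.2 and 33.6 CPM after seizure, a log2 fold change of 2.06 (SE 0.48, adjusted p = 0.0744, edgeR). Naive 1 held 17 of the 24 naive UMIs, and without it the change was 3.07 (adjusted p = 0.00403, edgeR). The others of the neuron class gave 22.0, 0, 16.7, 8.88 and 0 CPM in naive libraries and 40.1 and 63.9 CPM after seizure (log2 fold change 1.94, SE 0.48, adjusted p = 0.0785, edgeR), and without naive 1 the change was 2.62 (adjusted p = 0.0178, edgeR). Both neuron classes also passed without the filter on low counts, with adjusted p = 0.00506 and 0.0177 (edgeR). In mural cells, neurons and the others of the neuron class alike, 14 of 16 alternatives did not pass. The lowest log2 fold changes among the alternatives were 4.04, 1.67 and 1.56 in these classes.

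Microglia, the immune cells of the brain, gave 7.14, 12.0, 12.8, 7.90 and 21.2 CPM in naive libraries and 46.9 and 59.2 CPM after seizure (log2 fold change 2.25, SE 0.83, adjusted p = 0.524, edgeR). Oligodendrocytes gave 12.6, 26.4, 7.38, 5.67 and 0 CPM and then 30.6 and 36.2 CPM (1.43, SE 0.49, adjusted p = 0.740, edgeR). In both, the groups did not overlap while the calls did not pass. The order of the mean levels after seizure was mural cells (551 ± 224 CPM, SD, n = 2), precursors (550.0 ± 44.3), endothelial cells (368 ± 11.7), astrocytes (67.4 ± 17.8), microglia (53.1 ± 8.69), other neuron-class cells (52.0 ± 16.8), neurons (41.9 ± 11.7) and oligodendrocytes (33.5 ± 3.96). Mural cells differed from precursors and endothelial cells by less than their SD, and each class from astrocytes to oligodendrocytes differed from the next by less than the larger SD of both.

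Cells differ in depth between classes, so shares of cells with a Nr4a1 UMI were also taken at 600 UMIs per cell. After seizure these shares were 25.2% in precursors, 23.4% in mural cells, 18.4% in endothelial cells, 3.53% in astrocytes, 2.91% in microglia, 2.76% in other neuron-class cells, 2.48% in oligodendrocytes and 2.29% in neurons. Oligodendrocytes had been taken as the class to read a background from free RNA, but their own Nr4a1 was called raised after immobilization and odor exposure, so no background is read from them and none was measured otherwise. The share in neurons lay just below theirs. Before thinning, 8.89% of neurons and 7.13% of oligodendrocytes held a UMI, at median depths of 2252 and 2099.5 UMIs per neuron and 2118 and 2207.5 per oligodendrocyte in seizure 1 and 2. With 2 seizure and 5 naive libraries the exact two-sided permutation test cannot go below p = 0.0952. Of 66 such tests over the 3 genes, all classes and all stimuli, 0 passed after adjustment and 8 had an unadjusted p under 0.05. A response that differs between each class and neurons was tested on log2(CPM + 10) in the same way. Of 63 exact permutation tests 0 passed after adjustment and 4 had an unadjusted p under 0.05. The smallest p that any of the 63 can give is 0.0159, and too few of them can reach it for any to pass the adjustment. The count of 0 was thus fixed by the number of libraries and does not show that classes respond alike.

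Astrocytes with a Nr4a1 UMI after seizure held a UMI of Fos, the immediate early gene used most to mark activity, in 32 of 51 cells of seizure 1 (62.7%) and in 18 of 28 of seizure 2 (64.3%). Of the astrocytes without one, 22.0% and 30.1% held Fos. The former were also deeper, with medians of 2005 and 1804 UMIs against 1216 and 1358, and the part of depth in this difference was not tested. In precursors the shares with Fos were 18.9% and 16.2% among cells with Nr4a1 and 7.69% and 11.4% among the rest. In endothelial cells they were 13.3% and 52.4% against 10.8% and 9.80%, so the libraries differed there. In neurons the shares with Fos were 41.7% and 54.5% against 19.3% and 23.3%. In the others of the neuron class they were 22.7% and 34.8% against 8.18% and 15.9%. Cells with Nr4a1 were deeper than the rest in both of these classes as well.

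Stress by immobilization raised Nr4a1 in endothelial cells, to 154, 161, 286 and 111 CPM in immobilization 1 to 4, above all naive libraries. The log2 fold change was 3.57 (SE 0.54, adjusted p = 4.89e-05, edgeR), and 5.60 without naive 2 (adjusted p = 1.47e-06, edgeR). Nr4a1 was also raised in oligodendrocytes, at 31.5, 31.2, 43.1 and 50.8 CPM (log2 fold change 1.52, SE 0.40, adjusted p = 0.0474, edgeR), where the groups again did not overlap. That second call is not firm: its size hardly moved, but it no longer passed with DESeq2 (log2 fold change 1.56, adjusted p = 0.175), with age as a covariate (1.48, adjusted p = 0.228, edgeR) and without any 1 of immobilization 1, 2 or 3 or naive 1, 3, 4 or 5, for an adjusted p of up to 0.359 (edgeR). These are 2 calls of 10 tested pairs, where 0.562% of all tests were called raised. In 1.35% of all tests every immobilization library stood above every naive one.

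The other classes did not pass after immobilization. Astrocytes gave 11.7, 2.33, 9.91 and 13.4 CPM, overlapping with naive libraries (log2 fold change 1.41, SE 0.60, adjusted p = 0.366, edgeR). Precursors gave 113, 93.6, 178 and 94.3 CPM, around the naive values (0.52, SE 0.32, adjusted p = 0.996, edgeR). Neurons gave 11.6, 7.47, 19.3 and 0 CPM, within the naive range (0.08, SE 0.56, adjusted p = 1.000, edgeR). Microglia gave 3.39, 8.49, 5.59 and 0 CPM, and mural cells 60.8, 56.6 and 0 CPM, both overlapping with naive libraries.

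Set directly against immobilization, Nr4a1 after seizure was higher in astrocytes (log2 fold change 3.12, SE 0.42, adjusted p = 6.57e-06, edgeR) and precursors (2.15, SE 0.28, adjusted p = 1.11e-06, edgeR). These are 2 calls of 10 tested pairs, where 0.100% of all tests were called raised. Both seizure libraries stood above all immobilization libraries for Nr4a1 in 7 classes, all but oligodendrocytes, for Nr4a2 in astrocytes and for Nr4a3 in astrocytes and other neuron-class cells, as in 6.51% of all tests. In endothelial cells the 360.0 and 376.5 CPM after seizure lay above the highest immobilization library, but the difference of 0.99 (SE 0.40) did not pass (adjusted p = 0.936, edgeR). In oligodendrocytes the difference was -0.09 (SE 0.43), smaller than its error.

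After exposure to odors Nr4a1 was at 0, 16.5, 0 and 0 CPM in endothelial cells, within the naive range. In oligodendrocytes it stood at 43.5, 35.4, 37.8 and 29.9 CPM, above all naive libraries as in 1.42% of all tests, and was called raised (log2 fold change 1.59, SE 0.39, adjusted p = 0.0358, edgeR). That was the only call among 10 tested pairs, where 0.180% of all tests were called raised, and it too was not firm. It no longer passed with age as a covariate, at nearly the same size (1.55, adjusted p = 0.152, edgeR), and without any 1 of odor 1, 2 or 3 or naive 1, 3 or 4 (up to 0.166, edgeR). In microglia it lay below every naive library, as in 1.23% of all tests, at 0, 0, 4.38 and 0 CPM (log2 fold change -2.47, SE 1.26, adjusted p = 0.994, edgeR). Between immobilization and odor, endothelial Nr4a1 was called higher after immobilization (log2 fold change 4.70, SE 0.72, adjusted p = 1.27e-04, edgeR). This was the only call of 10 pairs, against 0.0753% of all tests called raised. Groups were apart with immobilization higher in 1.88% of all tests, and with odor higher in 1.96%, among the members only for Nr4a3 in other neuron-class cells. The 2 Nr4a1 UMIs of odor 2 were the only ones of the odor group in endothelial cells. Without that library, against an odor group with no UMI, the fitted endothelial Nr4a1 change between immobilization and odor was 7.25, which is no bound.

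**Figure D2:**
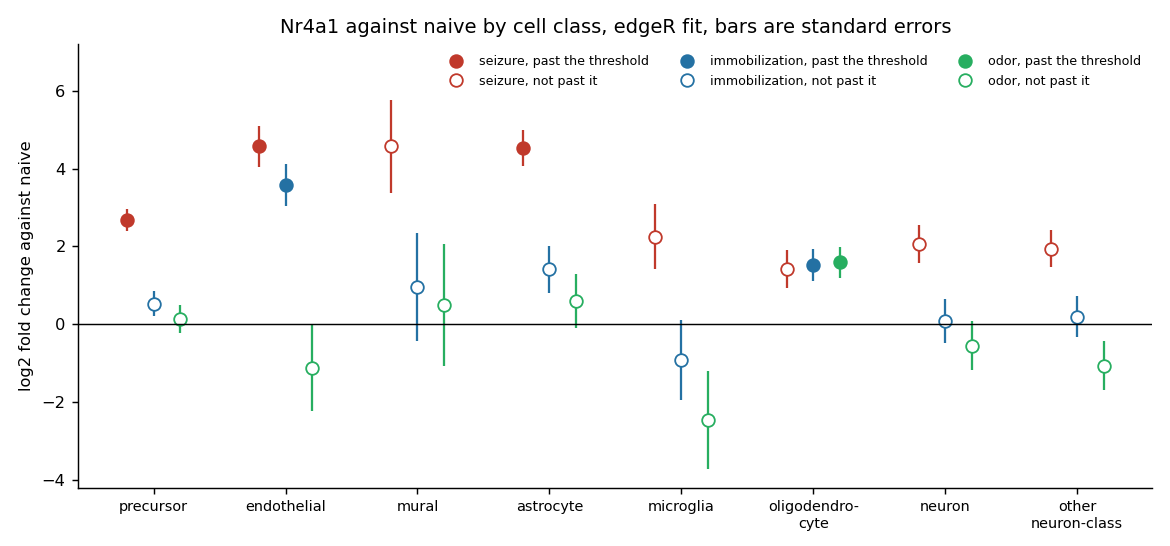
Log2 fold changes of Nr4a1 by cell class (points, with bars of 1 standard error) for seizure, immobilization and odor, each against the same naive libraries; filled points passed the test at an adjusted p of 0.05. Seizure changes passed in astrocytes, endothelial cells and precursors, immobilization changes in endothelial cells and oligodendrocytes, and the odor change in oligodendrocytes.

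Nr4a2 was found above all in endothelial cells. There it gave 29.0, 81.1, 0, 28.7 and 0 CPM in naive libraries and 81.8 and 72.0 CPM after seizure, of which only the first lay just above the highest naive library (log2 fold change 1.31, SE 0.70, adjusted p = 0.866, edgeR). Immobilization libraries gave 51.3, 53.6, 95.2 and 155 CPM (1.35, SE 0.62, adjusted p = 0.415, edgeR), and odor libraries 30.5, 33.1, 31.8 and 0 CPM. Every immobilization library lay above every odor library, but that difference did not pass either (1.40, SE 0.69, adjusted p = 0.762, edgeR). At 600 UMIs per cell, 3.69% ± 1.48 (SD, n = 4) of endothelial cells held Nr4a2 after immobilization and 0.779% ± 0.834 (SD, n = 5) in naive libraries (exact permutation p = 0.0159, adjusted p = 0.242).

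In astrocytes Nr4a2 gave 10 and 13.7 CPM after seizure, from 19 UMIs, and 0 to 3.56 CPM in naive libraries. The pair had too few UMIs for the filter, and without the filter the change was 2.85 (SE 0.80, adjusted p = 0.0725, edgeR). In neurons it gave 16.4 and 2.59 CPM after seizure, both within the naive values of 0 to 42.6 CPM, whose upper end is 1 UMI in naive 5 (log2 fold change 1.20, SE 0.73, adjusted p = 0.999, edgeR). Oligodendrocytes, microglia and mural cells held 4, 2 and 2 Nr4a2 UMIs over all libraries. Of the genes that Nr4a2 drives in dopamine neurons, such as Th for tyrosine hydroxylase, 8 were listed, 6 are in the table and 2 had enough UMIs in any class. They were called in 0 of 35 tests over 5 comparisons (edgeR; 8 tests had an unadjusted p under 0.05, and DESeq2 called 0). With 0.0753% to 0.562% of all tests called raised in these comparisons, that count is near the share over all genes and shows nothing particular to this list.

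Neurons held the most UMIs of Nr4a3, 89 over all libraries. There it gave 1.26, 5.71, 6.36, 0 and 0 CPM in naive libraries and 36.7 and 10.3 CPM after seizure, the latter from 38 and 4 UMIs. Both seizure libraries lay above the naive ones, by unequal amounts. It passed the filter on low counts in no class, and without the filter the change in neurons was 2.86 (SE 0.59, adjusted p = 0.00142, edgeR), with seizure 1 giving most of the UMIs. Immobilization libraries gave 12.9, 8.72, 19.3 and 0 CPM and odor libraries 5.04, 13.1 and 17.4 CPM in neurons, without the filter log2 fold changes of 1.70 (adjusted p = 0.628, edgeR) and 1.69 (adjusted p = 0.529, edgeR).

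In precursors Nr4a3 had no UMI in any naive library and 10 and 2 UMIs in seizure 1 and 2 (46.7 and 12.9 CPM). Most of these UMIs came from seizure 1, and without the filter the difference did not pass (adjusted p = 0.178, edgeR). Other neuron-class cells gave 20.8 and 12.3 CPM after seizure and 0 to 4.44 CPM in naive libraries. Astrocytes gave 11.1 and 4.11 CPM and 0 to 2.10 CPM. Microglia held 0 Nr4a3 UMIs in all 15 libraries, 0 of 2113 cells, which allows a share of up to 0.142% of cells with a UMI and sets no limit on cells that express the gene. Endothelial cells held 8 UMIs over all libraries and mural cells 6, which in so few cells amount to 14.4 CPM, against 12.8 CPM in neurons.

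**Figure D3:**
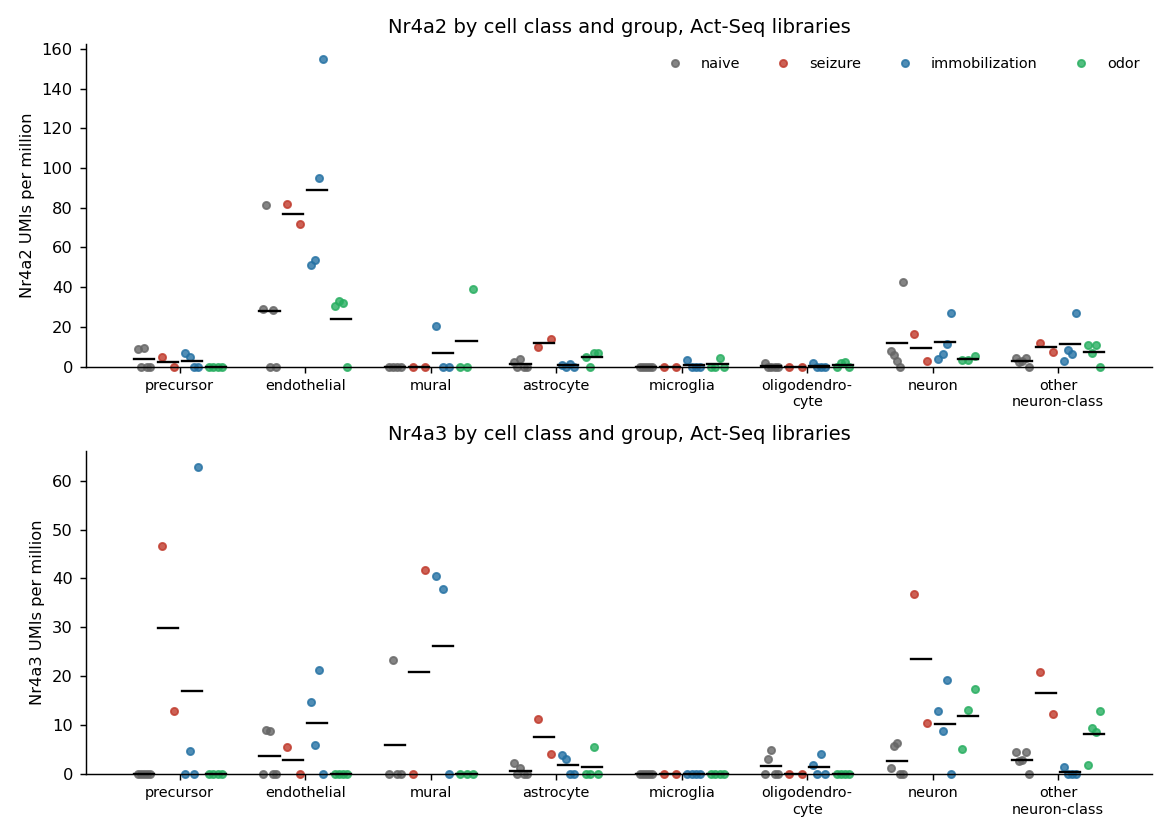
Nr4a2 and Nr4a3 in CPM (y axis) by cell class, with 1 point per Act-Seq library in the naive, seizure, immobilization and odor groups; bars mark group means. Nr4a2 is highest in endothelial cells, and Nr4a3 after seizure stands above naive libraries in neurons, other neuron-class cells, astrocytes and precursors.

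The neuron table divides neurons into 16 clusters that the authors numbered. Summed over both seizure libraries, Nr4a1 was highest in N12, at 211 CPM (exact 95% Poisson interval 101 to 387, which covers counting error only). Its 10 UMIs lay in 4 of 21 cells, and seizure 1 gave 7 of these UMIs. N12 was also highest in naive libraries, at 82.0 CPM (10 UMIs, interval 39.3 to 151), and these intervals overlap. N2 followed at 123 CPM from 5 UMIs of seizure 1 in 3 cells. Nr4a3 had its most UMIs after seizure in N13 (12 UMIs, 54.9 CPM, interval 28.4 to 95.8), N15 (7) and N10 (6), of which seizure 1 gave 10, 7 and 6. N13 carried the astrocyte genes Gja1 and Agt at 1350.3 and 1294 CPM, the highest of the 16 clusters, against 458 CPM of the neuronal gene Snap25. In N15 they stood at 1186 and 935 CPM against 459 CPM of Snap25. Gja1 stood above Snap25 in most of the 16 clusters, though not in N10 (685 against 869 CPM). The part of astrocyte RNA in the Nr4a3 of these clusters was not tested. Clusters held 16 to 64 seizure cells, and the Nr4a1 interval of N12 overlapped that of N2 but lay above those of N3, N7, N8, N13, N14, N15 and N16. These intervals cover no spread between libraries or between cells. Where few cells hold several UMIs each they are too narrow, so they do not settle the order of clusters.

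**Figure D4:**
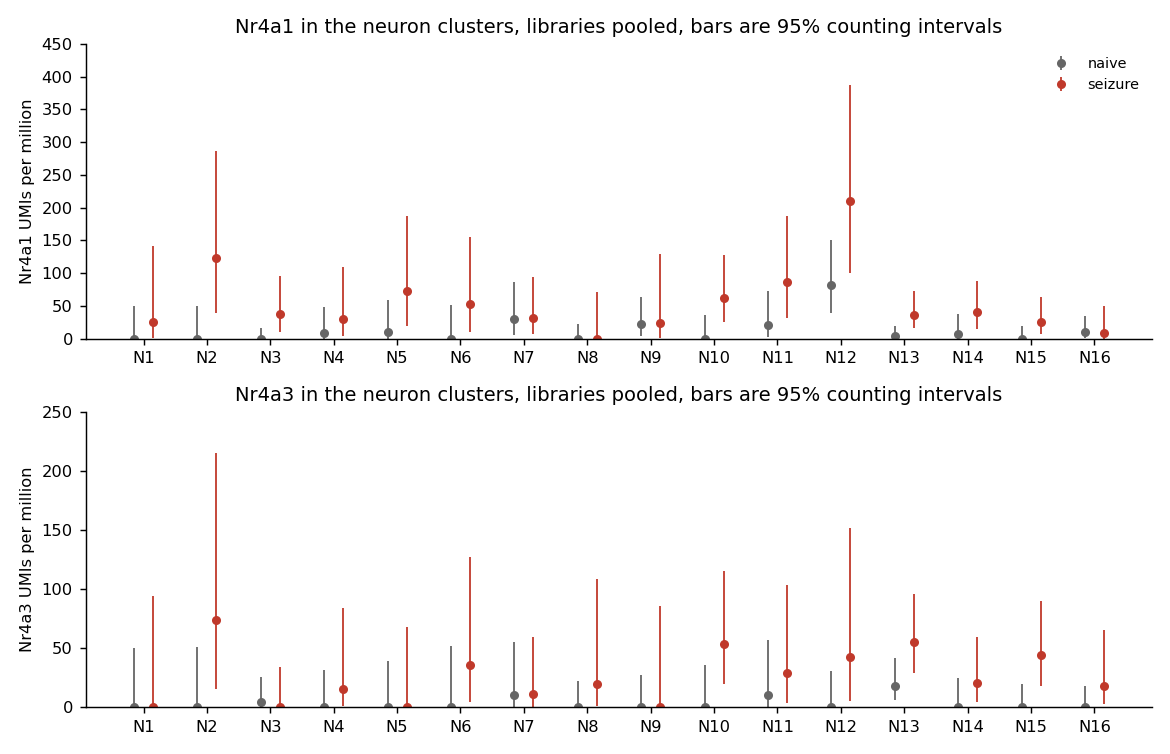
Nr4a1 and Nr4a3 in CPM (y axis, with exact 95% Poisson intervals) in the 16 neuron clusters of the authors, summed over naive and over seizure libraries. N12 has the highest Nr4a1 in both groups, and most intervals overlap.

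The genes whose mean levels ran most like those of each member were sought over 32 means (8 classes in 4 groups) and 13159 genes with at least 100 UMIs, as a description. The means share libraries, and the coefficients are Pearson correlations of log2(CPM + 10). For Nr4a1 these were Jun (0.73) and Fosb (0.67), which encode subunits of the AP-1 factor, Adm (0.71), which encodes the vessel peptide adrenomedullin, Gripap1 (0.69) and Spry1 (0.67), an inhibitor of growth factor signalling. For Nr4a2 they were the endothelial genes Egfl7 (0.89) and Rasip1 (0.87), and Acer2 (0.88), Proser2 (0.87) and Tmem252 (0.87). For Nr4a3 the first was the immediate early gene Egr1 (0.70), before Reep6 (0.66), Spdya (0.65), Tmem126a (0.64) and Heatr5b (0.64). The members ran less alike among themselves than with these first genes, with 0.49 between Nr4a1 and Nr4a3, 0.23 between Nr4a1 and Nr4a2 and 0.13 between Nr4a2 and Nr4a3. Among the 13159 genes Nr4a3 still ranked 369 for Nr4a1, and Nr4a1 ranked 161 for Nr4a3. The pairs with Nr4a2 had ranks from 2534 to 4693. Most means of Nr4a2 and Nr4a3 lay below the 10 CPM added, which limits their coefficients.

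Other genes of the pathway were taken from lists and counted in the classes where a member passed. The lists were chosen with earlier results of these data known, so the counts here and below are a description and no separate support. After seizure 3 of 9 immediate early factors rose in astrocytes, Egr1 (log2 fold change 5.18), Fos (4.42) and Junb (3.62), with a list median of 1.57 against -0.01 over all genes. In endothelial cells 6 of 13 rose, led by Fosb (5.12), Egr1 (2.77), Maff (2.73) and Atf3 (2.28), and the median was 1.37 against -0.03. In precursors 1 of 4 rose, Egr1 (5.64), with a median of 0.68 against -0.01. After immobilization 4 of 13 rose in endothelial cells, led by Maff (3.41) and Fosl2 (2.64), with a median of 0.91 against -0.03. Fos was not among them.

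Genes that answer cAMP through CREB rose in 4 of 10 tests in astrocytes after seizure, Sik1 (3.83), a kinase that restrains CREB signalling, Dusp1 (2.99), a phosphatase of MAP kinases, the clock gene Per1 (1.97) and Ppp1r15a (1.33), with a list median of 0.92. In endothelial cells 1 of 4 rose after seizure (Dusp1, 2.51) and 2 of 4 after immobilization (Dusp1, 2.58, and Crem, 2.26), with medians of 1.69 and 1.98. In precursors 0 of 2 rose after seizure. Glucocorticoid responsive genes rose in 8 of 14 tests in astrocytes, 4 of 12 in endothelial cells and 1 of 7 in precursors after seizure, with list medians of 1.22, 1.05 and 1.07. Among all genes 0.380%, 0.580% and 0.122% were called raised in these 3 classes. Since the list was chosen with earlier results of these data known, the gap to these shares is no test of it. After immobilization 6 of 12 rose in endothelial cells and 9 of 14 in oligodendrocytes (1.61% and 0.752% of all genes), where the cell cycle inhibitor Cdkn1a (5.08), Plin4 (2.66), the kinase gene Sgk1 (2.37) and Nfkbia (2.36) led. Dusp1 and Per1 stand in both this list and the cAMP list and are counted in each. After odor exposure 9 of 14 rose in oligodendrocytes (0.483% of all genes), again with Cdkn1a (4.02), Plin4 (2.60) and Sgk1 (2.16) first, while 0 of 3 immediate early factors were called in oligodendrocytes in either comparison.

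The list of partners and regulators of Nr4a proteins holds the retinoid X receptors, which pair with Nr4a1 and Nr4a2, the CREB coactivators Crtc1 to Crtc3, Creb1, the Mef2 genes, Srf and others, 16 genes in all. The count was 0 of 375 tests over the 5 comparisons (edgeR; 6 had an unadjusted p under 0.05, and DESeq2 called 0). Of 31 other nuclear receptors 24 could be tested in some class, and they were called in 0 of 450 tests (edgeR; 32 had an unadjusted p under 0.05, and DESeq2 called 0). With 0.0753% to 0.562% of all tests called raised in these comparisons, counts of 0 are near the share over all genes and show nothing particular to either list. After seizure the medians over classes were 0.02 for the partners and -0.07 for the other receptors, against -0.01 for all genes.

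The second table asks what dissociation itself does to these genes. Its classes were rebuilt by clustering without immediate early genes and named from markers. Nr4a1 was called higher with conventional dissociation in microglia-like cells, 1 call of 9 tested pairs (Nr4a1 in 7 classes, Nr4a2 in endothelial-like and mural-like cells), where 1.75% of all 41062 tests were called raised. It gave 6.65 CPM with Act-Seq and 647 CPM with conventional dissociation after saline (2 and 168 UMIs). After seizure it gave 52.4 and 49.4 CPM with Act-Seq (10 and 7 UMIs) and 229 CPM with conventional dissociation (48 UMIs). Both conventional libraries stood above all Act-Seq libraries, with a log2 fold change of 3.85 (SE 0.34, adjusted p = 1.35e-26, edgeR with terms for method and seizure, 2 residual degrees of freedom). Only seizure with Act-Seq has 2 libraries and every other condition has 1, so little spread between libraries is measured behind this p. Most microglia-like cells of the conventional libraries lay in a cluster led by the chemokine gene Ccl4 and most of the Act-Seq libraries in a cluster led by P2ry12. The change was 6.68 without the conventional seizure library, 4.60 without seizure 1, 2.27 without the Act-Seq saline library and 2.27 without the conventional saline library, and passed each time (edgeR).

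**Figure D5:**
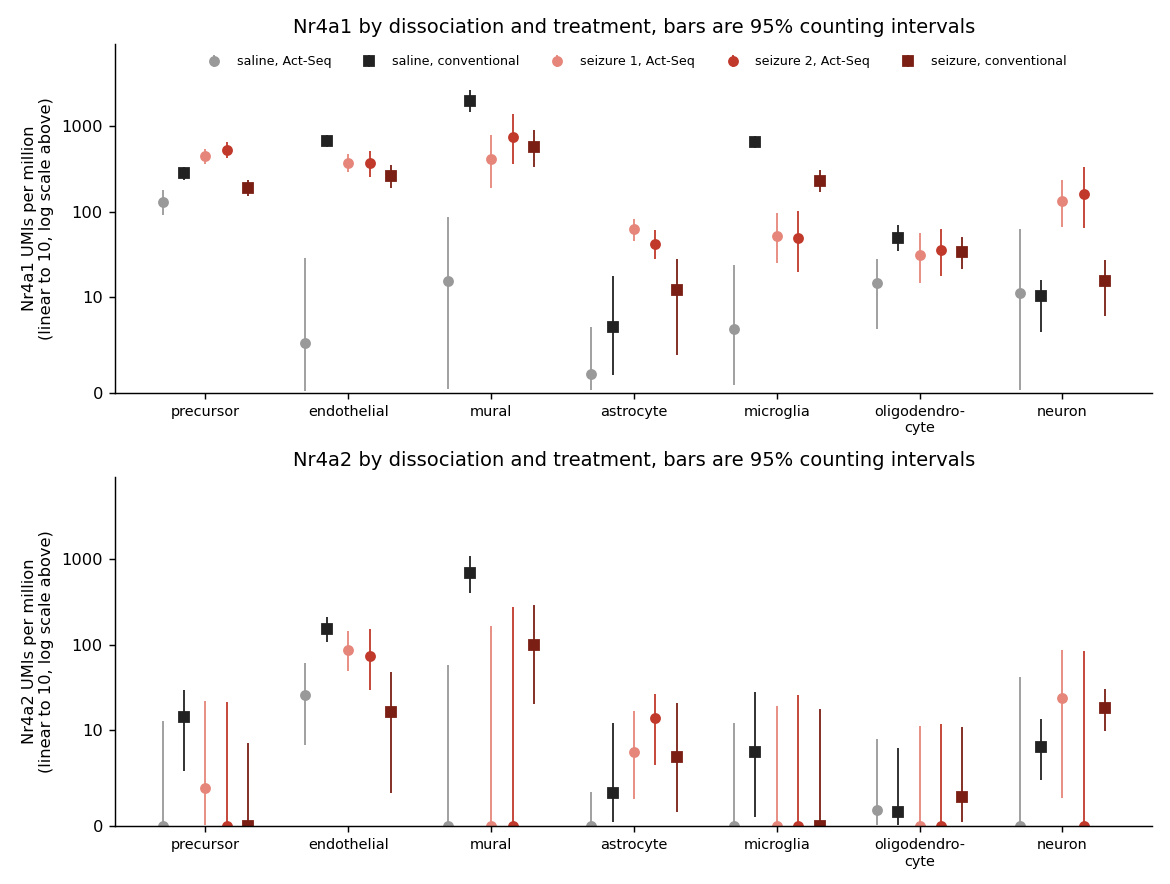
Nr4a1 (top) and Nr4a2 (bottom) in CPM (y axis, linear to 10 and log scale above) in the rebuilt classes of the dissociation table, with 1 point per library and exact 95% Poisson intervals. For Nr4a1 after saline the conventional library stands far above the Act-Seq library in microglia-like, endothelial-like and mural-like cells, while in astrocyte-like cells both Act-Seq seizure libraries stand highest.

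In microglia-like cells 13 of 14 immediate early factors rose with conventional dissociation, led by Fosb (log2 fold change 8.85), Fos (8.70), Egr1 (8.47) and Ier2 (6.89), with a list median of 4.68 against -0.01 over all genes. Of the cAMP responsive genes 4 of 7 rose there (median 1.73) and of the glucocorticoid responsive genes 10 of 12 (median 1.15), in a class where 3.05% of all genes were called raised. Vessel cells showed high Nr4a1 with conventional dissociation after saline as well. Endothelial-like cells gave 5.19 CPM with Act-Seq (1 UMI) and 667 CPM with conventional dissociation (157 UMIs), and after seizure 372 and 367 CPM with Act-Seq and 259 CPM with conventional dissociation. Mural-like cells gave 15.6 CPM (1 UMI) and 1967 CPM (49 UMIs) after saline, and 408, 738 and 563 CPM after seizure in the same order. With seizure as a term beside it, the method did not pass in endothelial-like (log2 fold change 1.54, SE 0.77, adjusted p = 0.872, edgeR; 1.58, adjusted p = 0.00369 without the filter on low counts) or mural-like cells (2.44, SE 0.91, adjusted p = 0.376, edgeR). In mural-like cells the method passed in 6 of 12 alternatives. These were RLE scaling, a clustering resolution of 1.5, and leaving out the 5% of cells with most UMIs, where the change was 2.55. A term for the interaction of seizure and method gave a change of 3.43. It also passed without seizure 1 and without the conventional seizure library, where the change was 6.68. Without either saline library the change was 0.15 or 0.16.

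The seizure effect on Nr4a1 differed between methods in 4 classes by a test of the interaction, which leaves 1 residual degree of freedom. In endothelial-like cells the log2 change from saline to seizure was lower with conventional dissociation by -7.39 (SE 0.89, adjusted p = 5.91e-06, edgeR). The interaction was -6.44 (SE 1.29, adjusted p = 6.09e-04, edgeR) in mural-like, -4.40 (SE 0.90, adjusted p = 0.00165, edgeR) in microglia-like and -2.49 (SE 0.49, adjusted p = 5.83e-04, edgeR) in precursor-like cells. In precursor-like cells Nr4a1 gave 128 CPM with Act-Seq and 280.1 CPM with conventional dissociation after saline, and 439.6, 523 and 189.7 CPM after seizure. Nr4a2 in endothelial-like cells had an interaction of -4.84 (SE 1.02, adjusted p = 0.0126, edgeR), with 25.9 and 153 CPM after saline and 87.1, 73.4 and 16.5 CPM after seizure. Of all tests of the interaction, 0.146% were called lower. With 1 library each of saline and conventional seizure, a library and its condition cannot be told apart in these values.

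In astrocyte-like cells the interaction was -3.89 (SE 1.36) and did not pass (adjusted p = 0.640, edgeR). Nr4a1 gave 1.89 CPM with Act-Seq and 6.83 CPM with conventional dissociation after saline, and 61.8 and 42.0 CPM with Act-Seq and 12.0 CPM with conventional dissociation after seizure. Seizure against saline was called there (log2 fold change 3.33, SE 0.56, adjusted p = 5.37e-04, edgeR), 1 of 9 tested pairs, where 0.127% of all tests were called raised. It was lost with DESeq2 (adjusted p = 1.000), without the Act-Seq saline library (0.80, adjusted p = 0.989, edgeR) and without seizure 1 (2.88, adjusted p = 0.128, edgeR). It was 4.73 without either conventional library. Between methods the difference in these cells was -1.22 (SE 0.55, adjusted p = 0.290, edgeR), and it passed without the Act-Seq saline library (-2.07, adjusted p = 0.0261, edgeR) or without the conventional saline library (-2.05, adjusted p = 0.0339, edgeR). Without the conventional seizure library its sign turned, to 1.85. Oligodendrocyte-like cells gave 14.6 and 49.7 CPM after saline and 30.8, 35.2 and 33.7 CPM after seizure. The saline libraries differed beyond their counting intervals (6.69 to 27.8 and 34.4 to 69.5 CPM), and neither the method (log2 fold change 0.88, SE 0.40, adjusted p = 0.563, edgeR) nor seizure passed.

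Neuron-like cells numbered 27 to 49 in each Act-Seq library and 487 and 274 in the conventional ones, since most cells the authors called neurons fell into clusters led by Kif5a, Lrrc17 and Slc17a7 that were left unnamed. Nr4a1 gave 1 to 20 UMIs per library there, and the change with method was -2.17 (SE 1.20, adjusted p = 0.204, edgeR). Nr4a2 in mural-like cells was found with conventional dissociation only, at 682 CPM after saline (17 UMIs) and 99.4 CPM after seizure (3 UMIs), with 0 UMIs in all 3 Act-Seq libraries. The fitted change did not pass (adjusted p = 0.366, edgeR), and without the filter on low counts it did (adjusted p = 0.00128, edgeR). The partner genes of Nr4a were called in 0 of 66 tests of the method (edgeR; 9 had an unadjusted p under 0.05, and DESeq2 called 0). Of all tests of the method 1.75% were called raised, so a count of 0 in so few tests shows nothing particular to this list.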

How the data were processed

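Single cells of the mouse medial amygdala were counted by Drop-seq. Per the submitters' processing notes the reads were handled with bcl2fastq 2.17.1.14 and STAR 2.5.0a on mm10; the strand setting is not stated there. The authors deposited UMI counts per gene and cell, with a class per cell in the table of all cells and a cluster per cell in the table of neurons.

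Sums of counts over the cells of a class, in libraries with 10 or more such cells, were tested per class with edgeR 4.0.16 (quasi-likelihood F-test, TMM scaling, filterByExpr, R 4.3.3) over all genes, with Benjamini-Hochberg adjustment and a threshold of 0.05. The fits of the first table hold all 4 Act-Seq groups and those of the dissociation table have terms for method and seizure. Classes of the dissociation table were rebuilt by Leiden clustering (scanpy 1.11.5, leidenalg 0.10.2) without immediate early genes (2000 variable genes, 30 components, 15 neighbours, resolution 0.8), and a cluster was named where the mean log2 fold of a marker list reached 0.8, a minimum set after seeing its leading genes. No doublet caller was run; leaving out the 5% of cells with most UMIs was an alternative. The shares at 600 UMIs are those expected if each cell were thinned to 600 UMIs, without shallower cells, and were compared by exact two-sided permutation tests over libraries. Total UMIs per library set the precision, and intervals and floors (3 UMIs) cover counting error only. The fits were tested on simulated data.

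Alternatives were DESeq2 1.42.0, RLE scaling, no filter on low counts, age, only the groups compared, the replicate number, each library left out and another clustering. The genes named are the 3 members, the called genes of each list with the largest changes (up to 4) and the 5 genes most like each member. The members and lists were chosen with earlier results of these data known.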

Additional observations from a re-analysis of the deposited data

Results flagged for a closer look

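The seizure effect differed between Act-Seq and conventional dissociation by a test of the interaction in 5 pairs of gene and rebuilt class. The log2 interactions (conventional minus Act-Seq) were -7.39 for Nr4a1 in endothelial-like cells, -6.44 in mural-like cells, -4.40 in microglia-like cells and -2.49 in precursor-like cells. For Nr4a2 in endothelial-like cells the interaction was -4.84. In all 5 the conventional saline library stood above the conventional seizure library, and both saline conditions and the conventional seizure condition rest on 1 library each.

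Of 22 groups of 4 or more libraries checked for a library far from the others, 2 held one, and chance gives about 1 in 20. Nr4a2 in endothelial cells was at 0.0 CPM in odor 4, against 30.5 to 33.1 CPM in odor 1 to 3, but odor 4 had 12 such cells with 14730 UMIs, where 0 counts allow up to 203.7 CPM, so the difference was not detectable at this depth. Nr4a2 in neurons was at 42.6 CPM in naive 5, which is 1 UMI in a small library, against 0 to 7.59 CPM in naive 1 to 4.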

How the results depend on the processing

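Of 417 recomputed single values 364 kept their direction and side of the threshold, 25 lost a call, 22 gained one and 6 reversed. The 3 calls after seizure became 7 without the filter on low counts and were 3 to 5 with 1 library left out. The 2 calls after immobilization became 1 with DESeq2, with age as a covariate, with only both groups, with the replicate block and without naive 5, naive 6 and immobilization 4 (1 to 2 with 1 library left out). The 1 call after odor became 0 under the same 5 settings (0 to 1), though DESeq2 gave it no adjusted p, so that setting does not count as a loss. Seizure against immobilization had 2 calls, 6 without the filter (2 with any library left out), and immobilization against odor 1 throughout leaving out. Between methods 1 call became 2 with RLE scaling, resolution 1.5, neurons joined with the clusters led by Kif5a, Lrrc17 and Slc17a7, or without the 5% of cells with most UMIs, and 3 without the filter or with the interaction (1 to 4). Seizure against saline had 1 call, 0 with DESeq2 and 2 with the interaction or the joined neurons (0 to 4). Joining neurons and leaving out the small libraries were chosen after seeing the data. Reversed values were those of Nr4a1 between methods in astrocyte-like cells without the conventional seizure library (1.85, against -1.22 and a range of -2.07 to 1.85 with 1 library left out), between seizure and saline in microglia-like cells (-0.79) with DESeq2 (0.59), with the interaction (0.63) and without either conventional library (2.83 and 2.83, range -1.55 to 2.83), and in precursor-like cells (0.69) without the Act-Seq saline library (-0.55, range -0.55 to 1.95); the cause was not tested. Deviations of same-numbered libraries had median correlations of -0.08 to 0.03 by class, and those of other pairs -0.007 to 0.06. With sparse counts, values this near to none cannot exclude that the numbers pair libraries. Nr4a2 and Nr4a3 are limited by depth, with 218 and 189 UMIs in all.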
